A study of Drosophila melanogaster with 8 samples.

Results

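The centromere-side 2 Mb of chromosome arm 3L are the stretch of the assembled arm that runs towards the centromere of chromosome 3. Regions enriched for heterochromatin protein 1a (HP1a) were assigned to it by position alone, as those on 3L whose midpoint lay at or beyond base 22543558 of FlyBase release 5, in which 3L is 24543557 bases long. The combined list, which the authors named as that of the replicate set, held 130 such regions out of 5697. The lists of replicates 1 to 4 held 166 of 5406, 128 of 5127, 154 of 4903 and 123 of 4260, a mean of 2.90% ± 0.289 of each list (SD, n = 4). The last combined-set region outside the limit ran from 22525372 to 22526675 with a score of 0.55, and the first inside ran from 22549192 to 22550666 with a score of 0.85.

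HP1a is a chromodomain protein that binds histone H3 methylated on its tail, and its chromoshadow domain pairs with a second HP1a molecule and with partner proteins. Pericentric heterochromatin, where it is concentrated, is rich in transposon remnants and other repeats and poor in genes, and genes moved next to it are silenced in some cells and not in others, a phenomenon known as position-effect variegation. Along a fly chromosome arm the gene-rich euchromatin passes into this heterochromatin before the assembled sequence ends.

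The 4 HP1a ChIP samples were made with the antibody wa191 from wild-type Oregon-R embryos of 14 to 16 h. Each shares its replicate number with 1 of 4 input samples from the same strain and stage. All 8 samples are labelled with 1.8% formaldehyde. Whole embryos hold many cell types, so each list is a mixture of them. No treatment or genotype was contrasted, and the design asks where HP1a was enriched over input. In the labels, replicates 1 and 2 carry the experiment numbers 1914 and 1916 (the lower-numbered pair) and replicates 3 and 4 carry 2026 and 2027 (the higher-numbered pair). What these numbers stand for is not stated. Separate embryo collections are not mentioned either, so the spread between replicates may be technical. The read depth of the libraries is unknown.

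HP1a-enriched regions filled most of the 3L window in every replicate. The covered share, meaning the percentage of all bases that lie in an enriched region, was 55.9%, 64.5%, 61.1% and 64.5% of the window in replicates 1 to 4. In the remaining 22.5 Mb of 3L it was 5.68%, 6.39%, 4.47% and 3.56%. The 2 sets of values did not overlap. The window share was 9.83, 10.1, 13.7 and 18.1 times that of the rest of the arm, a mean log2 ratio of 3.65 ± 0.42 (SD, n = 4). Within the pairs of neighbouring experiment numbers, the mean log2 ratio was 3.32 in the lower-numbered pair and 3.98 in the higher-numbered pair.

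3LHet, the 2.56 Mb scaffold of 3L heterochromatin that lies outside the assembled arm, was covered more densely than the window as a whole. It was covered over 68.6%, 79.5%, 73.9% and 76.6% in replicates 1 to 4. The window reached 0.814, 0.812, 0.827 and 0.842 times the 3LHet share, a narrow range with a mean log2 ratio of -0.28 ± 0.02 (SD, n = 4). The 3L window averaged 61.5% ± 4.09, against 62.8% ± 4.03 in the centromere-side 2 Mb of 2R, 34.9% ± 3.27 in that of 2L, 12.2% ± 1.64 in that of X and 5.37% ± 1.09 in that of 3R (SD over replicates, n = 4). The 3L window had 2.13 ± 0.0583 times the mean share of these other 4 windows, 28.8% ± 2.02 (SD, n = 4), a mean that 2R far exceeds and that 3R and X fall far below. The ratios to the rest of 3L, to 3LHet and to this mean each kept their direction in 4 of 4 replicates. Flipping the signs of the log2 ratios in an exact two-sided permutation test returned p = 0.125 for each ratio, and adjustment over a family of 7 ratios and differences by Benjamini and Hochberg left it at 0.125. With 4 replicates this permutation test allows no smaller p, so it cannot reach 0.05.

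**Figure D1:**
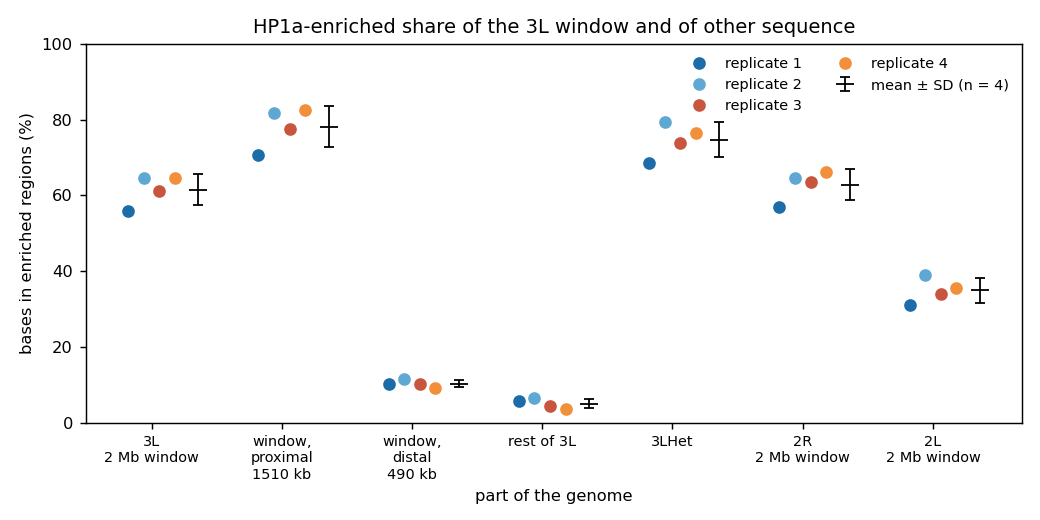
Percentage of bases in HP1a-enriched regions (vertical axis) for the 3L window, its parts on either side of the step, the rest of 3L, 3LHet and the centromere-side 2 Mb of 2R and 2L; each dot is 1 of 4 replicates and the bar is the mean ± SD. The part of the window proximal to the step lies between 70.7% and 82.4%, and the part distal to it between 9.20% and 11.4%.

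The window was not evenly filled. Its covered share stepped up at one place, about 1.5 Mb from the end of the assembled arm. As a mean over the replicates it stayed high from there on, apart from 1 bin of 50 kb, from 24193558 to 24243557. A least-squares split of the last 3 Mb of 3L into 2 segments, in bins of 10 kb, placed the step at 23033558 in the combined set and in replicates 1 and 2, and at 23003558 in replicates 3 and 4. The distance to the end of 3L was thus 1510 kb or 1540 kb, a mean of 1525 ± 17.3 kb over the replicates (SD, n = 4). On the distal side of its own step, replicate 1 was covered over 5.55%, replicate 2 over 6.22%, replicate 3 over 4.36% and replicate 4 over 3.04%. On the proximal, centromere-facing side the shares were 70.7%, 81.8%, 77.4% and 82.1%. The step was placed from these same values, so the contrast between its sides is a description and was not tested.

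**Figure D2:**
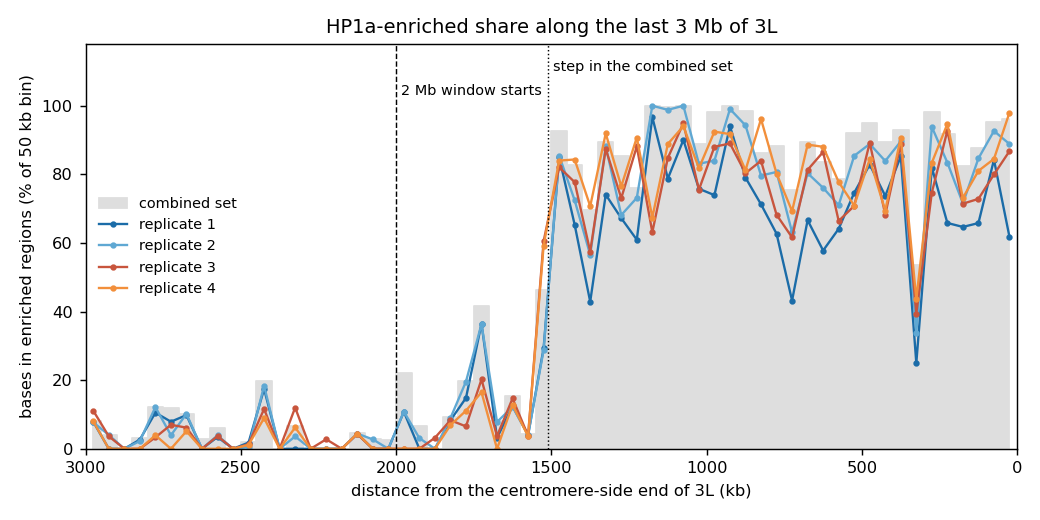
Percentage of bases in enriched regions (vertical axis) in bins of 50 kb along the last 3 Mb of 3L, against distance from the centromere-side end in kb (horizontal axis, end at the right); lines are the 4 replicates and grey is the combined set. The lines run low until about 1525 kb from the end and mostly stay high after it, apart from 1 bin centred 325 kb from the end. Replicate 1 also dips to 42.9% and 43.2% in the bins centred at 1375 and 725 kb.

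With the limits of the window fixed without regard to the step, the last 1 Mb was covered over 68.9%, 81.2%, 77.0% and 82.0% in replicates 1 to 4, against 42.8%, 47.9%, 45.3% and 47.0% in the first 1 Mb. The ratio was 1.69 ± 0.0558 (SD, n = 4), with the last 1 Mb denser in 4 of 4 replicates (exact permutation p = 0.125 by sign flips, unchanged by adjustment over the same 7).

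The edge of the dense part lay in nearly the same place in every list. The first region wider than 20000 bp in the window began at 23033598 in replicate 1, at 23032047 in replicate 2, at 23031549 in replicate 3 and at 23031449 in replicate 4, a spread of 2149 bp. In the combined set it ran from 23031686 to 23061980 with a score of 1.60. No region wider than 20000 bp lay distal to the step in any of the 5 lists, where the widest was 10518 bp long.

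Just in front of that edge, the replicates divided into their numbered pairs. A stretch of 52977 bp that the combined set left uncovered ended at 23007699, and from there to the step lay 25858 bp. The lower-numbered pair covered 18.1% and 17.0% of this stretch, and the higher-numbered pair covered 76.1% and 73.6%. In replicate 4 it opened with a region of 10518 bp from 23007108 to 23017625, whereas replicate 1 had its first region there only at 23018393. In replicates 2, 3 and 4 the stretch and its shares also took in the start of the wide block, which scored 1.71, 1.79 and 1.69. The regions before the block scored low. The first scored 0.80 in replicate 1, 0.78 in replicate 2, 0.66 in replicate 3 and 0.76 in replicate 4, each below the median of the window in its own list. Most of these weak regions lie in the 30 kb between the 2 placements of the step.

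**Figure D3:**
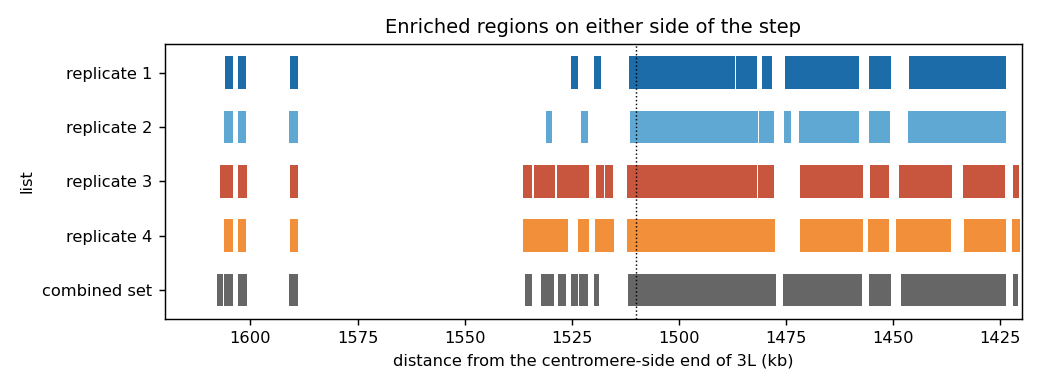
Enriched regions (bars) of the 4 replicates and the combined set around the step, against distance from the centromere-side end of 3L in kb (horizontal axis, end at the right). All lists begin a wide block close to the dotted line at 1510 kb, and the regions of replicates 3 and 4 cover more of the sequence just to its left.

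Proximal to the step at 23033558, the 1510 kb to the end of 3L were covered over 78.1% ± 5.40 by the replicates (SD, n = 4) and over 88.6% by the combined set. Replicates 1 to 4 covered 70.7%, 81.8%, 77.6% and 82.4% of this part, each above its own share of 3LHet. The limit of this part was placed from the same values, so the difference from 3LHet was not tested. Of the 30 bins of 50 kb wholly inside this stretch, 29 had a mean covered share above 50%, and the median bin stood at 80.5%. The fullest bin, from 23443558 to 23493557, was covered over 94.7% ± 4.10 (SD, n = 4). The only bin with a mean below 50% ran from 24193558 to 24243557. It was covered over 25.0%, 33.7%, 39.4% and 43.6% in replicates 1 to 4, against at least 74.7% in every replicate in the next bin towards the centromere. Replicate 1 alone was also below 50% in the bins that start at 23143558 and 23793558, at 42.9% and 43.2%. In the 1 Mb just before the window, no bin had a mean above 14.1%, and 7 of 20 bins were at 0 in all 4 replicates.

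The widest combined-set region of the window spanned 100516 bp from 23578044 to 23678559 and was the 5th widest of the 5697 in the series. Replicates 1 to 4 covered 89.6%, 96.9%, 85.0% and 87.1% of it, in 8, 5, 7 and 4 separate regions. The next widest were 78559 bp from 23335062 to 23413620 and 70091 bp from 23413862 to 23483952, which lie 241 bp apart. The replicates covered 85.7% ± 12.1 of the first of these and 94.1% ± 4.18 of the second (SD, n = 4). Another 47199 bp from 24029677 to 24076875 and 39672 bp from 24452623 to 24492294 completed the 5 widest, each covered over at least 91.1% in every replicate. In all, 23 combined-set regions were wider than 20000 bp and held 58.9% of the covered bases of the window.

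Within the single lists the widest block changed less in place than in size. Replicate 1 had a region of 42322 bp from 23441241 to 23483562. At the same place replicate 2 had 80662 bp (23413911 to 23494572), replicate 3 had 42848 bp (23440802 to 23483649) and replicate 4 had 52814 bp (23437767 to 23490580). Each was the widest of the window in its list. Among the 100 widest regions of each replicate list, 12, 11, 10 and 12 lay in the window, which held 3.07%, 2.50%, 3.14% and 2.89% of all regions of these lists.

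In the dense part most gaps of the combined set were short. The set left 99 stretches uncovered proximal to the step, with a median length of 1223 bp, and 1 of them was longer than 10000 bp. That one spanned 12312 bp from 24219072 to 24231383 and lies in the sparse bin named above. Replicates 1 and 2 had no region in it, and replicates 3 and 4 covered 18.0% and 32.1% of it. Single replicates left longer gaps. The longest was 25383, 18522, 17769 and 17941 bp in replicates 1 to 4, and 8, 4, 3 and 2 gaps were longer than 10000 bp, with medians of 1902, 1457, 1550 and 1390 bp. The longest gap of each replicate lay in the same sparse bin, and these gaps overlapped there. The stretch they shared, left uncovered by all 4 replicates, was 9288 bp long. No longer stretch proximal to the step was left uncovered by all 4. Runs of unknown bases and repeats that reads cannot be assigned to were kept in the total, so that a stretch may lack a call for that reason.

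The 5 longest uncovered stretches of the whole window all lay distal to the step. The longest, 94653 bp from 22618139 to 22712791, held 16.2% of the uncovered bases of the window, and only replicate 3 had any region in it, over 1.69% of its length. The 2nd was the stretch of 52977 bp in front of the step. The others were 41715 bp long (22860692 to 22902406), 38774 bp long (22575753 to 22614526) and 31889 bp long (22722239 to 22754127). The replicates covered at most 1.12% of any of these.

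Between these empty stretches, the distal 490 kb of the window carried mostly narrow regions. The 25858 bp just in front of the step held 39.0% and 42.2% of the distal covered bases in the higher-numbered pair, against 9.43% and 7.87% in the lower-numbered pair. In replicates 2, 3 and 4 these shares include the start of the wide block. The distal regions numbered 19, 20, 20 and 16 in replicates 1 to 4, with median widths of 2075, 2079, 2135 and 2047 bp, close to the 2035, 2059, 2022 and 2015 bp of the rest of 3L. They covered 10.1%, 11.4%, 10.3% and 9.20% of the stretch, above the rest of 3L in each replicate. Of the bins of 50 kb that lie wholly distal to the step, the densest ran from 22793558 to 22843557 and was covered over 36.5% and 36.3% in the lower-numbered pair, against 20.2% and 16.5% in the higher-numbered pair.

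The bin from 22793558 held the highest combined score of the whole window, 2.28, which belonged to a region of only 2290 bp from 22816867 to 22819156. Each replicate covered at least 95.1% of it. Its rank depended on the replicate: by score it was the 1st of the window's regions in both replicates of the lower-numbered pair, at 2.23 and 2.31. In the higher-numbered pair it was the 73rd and the 75th, at 1.39 and 1.29. The same split was seen for its neighbour of 2129 bp from 22814703 to 22816831, which ranked 17th in both replicates of the lower-numbered pair, but 114th and 121st in the higher-numbered pair. A region of 2902 bp from 22826850 to 22829751 ranked 11th and 6th in the lower-numbered pair and 89th and 94th in the higher-numbered pair.

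The other 4 of the 5 highest combined scores lay proximal to the step. The region of 5206 bp from 23087792 to 23092997, with a combined score of 2.17, ranked 2nd among the window's regions in replicates 1, 2 and 4 and 9th in replicate 3. The region from 23142858 to 23151019, with 1.84, ranked 7th, 9th, 3rd and 8th in replicates 1 to 4. The region from 23095290 to 23119976, with 1.83, ranked 9th, 5th, 12th and 6th. The farthest of these 3 from the step ended 117 kb from it. The region of 25151 bp from 24106642 to 24131792, also with 1.84, ranked 13th, 7th, 8th and 22nd. These regions were picked for a high combined score, and other proximal regions changed rank more. The top score of the window in replicate 4, 2.57, belonged to 1475 bp from 24092770 to 24094244, inside a combined-set region (24080604 to 24104146). In replicates 1 and 2 the highest score of that region was 1.39 and 1.37, where the top scores of the window were 2.23 and 2.31. The top of replicate 3, 2.47 from 23371873 to 23379259, lies in the 2nd widest combined-set region, which ranked 8th and 14th in replicates 1 and 2 and 3rd in replicate 4.

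Regions of the window were wider than those of the rest of 3L. The median width was 4016, 5421, 5199 and 7291 bp in the window in replicates 1 to 4, against 2035, 2059, 2022 and 2015 bp in the rest of the arm, which gave a ratio of 2.70 ± 0.682 (SD, n = 4). The window was the wider in 4 of 4 replicates (exact permutation p = 0.125 by sign flips, 0.125 after adjustment over 7). The number of regions per Mb was also higher, at 83, 64, 77 and 61.5 in the window against 23.8, 25.2, 19.3 and 15.7 in the rest of 3L (ratio 3.48 ± 0.667, same test and p). Replicates 2 and 4 had the fewest regions in the window and covered the most of it, with the longest medians.

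The authors' score has no stated scale and is compared here only within a list. The median score of the window less that of the rest of 3L was 0.13, 0.32, 0.71 and 0.69 in replicates 1 to 4, positive in 4 of 4 (exact permutation p = 0.125 by sign flips, 0.125 after adjustment over 7). Among regions above the median score of their own list, the differences were -0.22, -0.13, 0.19 and 0.21, so the direction in the lower-numbered pair depends on the score threshold. The window's regions were of middling score within their lists: their median percentile was 47.9, 58.1, 63.5 and 64.3 in replicates 1 to 4. None of the 100 highest scores of any of the 5 lists lay in the window. The window held 2.50% to 3.14% of all regions of the replicate lists and 2.28% of the combined set, so few were to be looked for there. Of the 100 widest regions, 10 to 12 of each replicate and 8 of the combined set lay in the window.

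Width and score of the window's regions went together. Across the regions of the window, Spearman's rho between log2 width and score was 0.716, 0.731, 0.632 and 0.492 in replicates 1 to 4, and Pearson's r was 0.626, 0.667, 0.611 and 0.477, over 166, 128, 154 and 123 regions. Regions of 1 list share a library and a caller and are not independent, so this is a description. The stretch from 23293558 to 23543557 had the highest median score of the 8 stretches of 250 kb in every list, at 1.52, 1.62, 1.62 and 1.72 in replicates 1 to 4. The 2nd and 3rd widest combined-set regions lie in it.

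**Figure D4:**
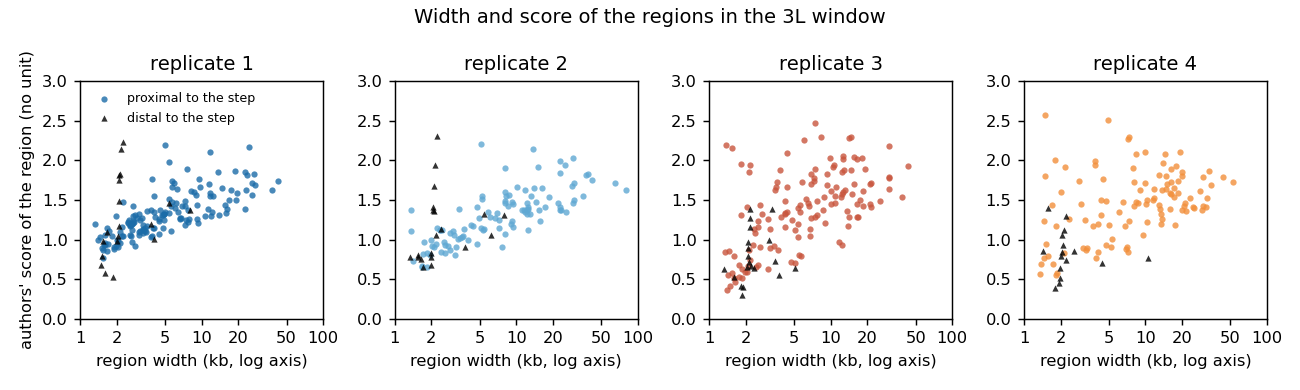
Score (vertical axis, the authors' value with no unit) against width (horizontal axis, kb on a log scale) of each enriched region in the 3L window, with 1 panel per replicate; coloured circles lie proximal to the step and black triangles distal to it. In replicates 1 and 2 some narrow distal regions score as high as the widest proximal ones, with 2.23 and 2.31 at the top.

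Counted by an overlap of 1 bp or more, 82 of the 130 combined-set regions of the window were present in every replicate. This is 63.1%, with a Wilson interval at 95% of 54.5% to 70.9% that covers counting error alone. With at least 50% of the combined-set region covered, in any number of pieces, the share was 56.2%. With reciprocal overlap of at least 50% by 1 single replicate region it was 24.6%, so the share depends strongly on the overlap rule. At 1 bp or more, in the rest of 3L it was 278 of 718 (38.7%, interval 35.2% to 42.3%), and over the whole series 47.1%. A further 8 regions (6.15%) were found in no replicate, against 13% over the whole series. Proximal to the step 71 of 100 were found in all 4 replicates, and distal to it 11 of 30. In the window the counts were higher in the wider classes: 0 of 29 regions of up to 2000 bp were found in all 4 replicates, 21 of 36 from there up to 5000 bp, 38 of 42 up to 20000 bp and 23 of 23 above that. In the rest of 3L the same classes gave 13 of 293, 245 of 360, 19 of 63 and 1 of 2, with no such order. By its name the combined set was made from these libraries too, and it is therefore taken as no independent check on them. Wide regions, and regions in widely covered sequence, meet an overlap of 1 bp more often by placement alone. The shares of the window, its parts, the width classes and the rest of 3L are therefore not on equal terms. The shares at 50% coverage and at reciprocal overlap are given for the window only.

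Base by base, 47.3% of the window was covered in all 4 replicates, 10.3% in 3, 10.7% in 2, 4.72% in 1 and 27.0% in none. Proximal to the step 61.1% was covered in all 4 replicates and 8.50% in none, and distal to it 4.79% and 84.1%. The Jaccard index, the shared share of the bases covered by either of 2 replicates, averaged 0.789 over the 6 pairs in the window, against 0.556 in the rest of 3L. Sequence that is widely covered shares more by placement alone, so these 2 means are not on equal terms. In the window the index was 0.896 within the higher-numbered pair and 0.830 within the lower-numbered one, and it lay between 0.699 and 0.794 for the other 4 combinations.

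**Figure D5:**
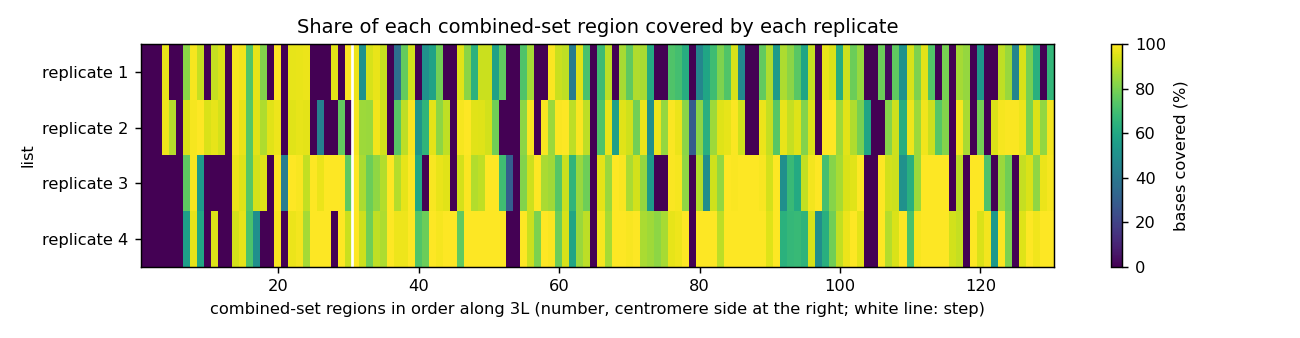
Percentage of the bases of each of the 130 combined-set regions (columns, in order along 3L with the centromere side at the right) covered by each of the 4 replicates (rows); yellow is fully covered and dark is not covered, and the white line is the step. Columns right of the line are mostly bright in all rows, and several left of it are bright in 2 rows only.

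Sequence covered in both replicates of 1 numbered pair and in neither of the other came to 102 kb for the lower-numbered pair, in 57 runs. The longest of them was 7672 bp, from 22796983 to 22804654. For the higher-numbered pair it came to 81.3 kb in 112 runs, the longest of which was 2836 bp, from 23009698 to 23012533. These runs were picked out after their values were seen. The amounts came to 5.08% of the window for the lower-numbered pair and 4.07% for the higher-numbered pair, against 1.5% and 0.248% of the rest of 3L (338 kb and 55.8 kb). The lower-numbered pair thus held more pair-specific sequence in both places, by a wider margin outside the window. Of the 130 combined-set regions, 17 were found in exactly 2 replicates: 4 in replicates 1 and 2, 9 in replicates 3 and 4, 3 in replicates 2 and 4 and 1 in replicates 1 and 3. In the rest of 3L it was 144 of 718, of which 101 were in replicates 1 and 2 and 17 in replicates 3 and 4. Among combined-set regions of at least 2000 bp, the 5 whose coverage varied most over the replicates all divided by the numbered pairs. Choosing the most variable of 4 values favours a division of 2 against 2, whichever replicates make it up. Some narrower regions varied as much and divided otherwise, such as 1494 bp from 23018463 to 23019956, found in replicates 1 and 3. The regions from 22570180 to 22575752, from 22796558 to 22804996 and from 24384291 to 24386957 were covered over 84.2% to 97.3% in the lower-numbered pair, and the higher-numbered pair had no region there. The region from 23015248 to 23017251, next to the step, was fully covered in the higher-numbered pair, and the lower-numbered pair had none there. The region from 23011280 to 23014357 was covered over 0% and 43.5% in the lower-numbered pair and over 97.0% and 100% in the higher-numbered pair.

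The centromere-side ends of 2R and 2L were set beside that of 3L. The 3L window was covered at 0.980, 0.999, 0.961 and 0.976 times the share of the 2R window in replicates 1 to 4, lower in 4 of 4 replicates, with a mean log2 ratio of -0.03. Against the 2L window it was 1.79, 1.66, 1.80 and 1.81 times as densely covered. Both comparisons were added after the data were seen, and for each the exact permutation p by sign flips was 0.125, also after adjustment over the 2. The same least-squares split placed the step 1545 ± 17.3 kb from the centromere-side end of 2R and 823 ± 20.6 kb from that of 2L, against 1525 ± 17.3 kb on 3L (SD, n = 4). The proximal segments were covered over 78.0% ± 5.32 on 3L, 79.0% ± 5.03 on 2R and 73.1% ± 4.88 on 2L. The distal segments of the last 3 Mb held 4.79% ± 1.40 on 3L, 14.9% ± 3.62 on 2R and 8.61% ± 2.27 on 2L. These step positions and segment shares were not tested.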

How the data were processed

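The deposited files were 5 lists of enriched regions, 1 per ChIP sample and 1 combined list for the replicate set, with coordinates on FlyBase release 5 per the file headers. The only value of each region is a score that the authors assigned; its scale is not stated. Bowtie 0.12.7 is named in the submitters' processing notes, and no peak caller, threshold or way of making the combined list is stated in the labels or headers. The 4 inputs entered only through the authors' calling.

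Sequence lengths were read from the headers, and regions running past an end were clipped. Regions were assigned by midpoint, and covered shares were computed over all bases. Replicates were grouped by title. Ratios were formed within each replicate and tested by an exact permutation of their signs (two-sided), with Benjamini-Hochberg adjustment. The step was the least-squares split into 2 segments of the covered share in 10 kb bins over the last 3 Mb of 3L. The regions and stretches named were the 5 widest, the 5 and (distal to the step) 3 highest in combined score, the 5 longest uncovered, and the 5 of at least 2000 bp whose coverage varied most; others are described as chosen later. Members, lists and tests were chosen with earlier results of these data known. The gene table at hand was of release 6, so genes and sequences at the regions were not analysed here. Python 3.11.15, NumPy 2.4.6, SciPy 1.17.1 and Matplotlib 3.10.9 were used, and the code was tested on simulated lists. The alternatives tried were other window sizes, score thresholds, merging, overlap rules, bins and subsets of replicates.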

Additional observations from a re-analysis of the deposited data

Results flagged for a closer look

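Among 100 values examined for 1 replicate standing apart from the other 3, 6 met Dixon's criterion at the 95% level. Where the other 3 are at 0, any value above 0 meets it. For normally distributed values chance gives about 1 in 20, here 5. The values here are percentages, some of them 0, so this rate need not hold. Several of these values overlap in sequence and are not independent. Replicate 1 covered 93.3% of the region from 23142858 to 23151019, whereas the other replicates covered 99.2% to 100% of it. Replicate 2 covered 94.3% of the bin from 23643558 to 23693557, whereas the other replicates covered 79.0% to 81.2%. The remaining 4 lay in the sparse distal part of the window, where a single narrow region sets the value. In the bin from 22593558 to 22643557 only replicate 2 had a region, over 3.10% of the bases. In the bin from 22643558 to 22693557 only replicate 3 had a region, over 3.20% of the bases, and the same region put the stretch from 22618139 to 22712791 at 1.69% in that replicate and at 0 in the rest. The stretch from 22860692 to 22902406 was at 0.424% in replicate 2 and at 0% to 0.0455% in the rest. What sets these values apart was not tested.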

How the results depend on the processing

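Of 92 alternatives, 87 left the mean of a ratio or difference with its direction, or a share, index or position within its error. Of the other 5, the share of combined-set regions in the window found in all 4 replicates was 24.6% with reciprocal overlap of at least 50%, 71.6% in a window of 1 Mb and 71% in one of 1.5 Mb, against 63.1%. The mean Jaccard index was 0.711 in the higher-scoring 50% of each list and 0.896 for replicates 3 and 4 only, against 0.789. The narrower windows leave out the sparse distal part by construction; for the others the cause was not tested. Each ratio or difference had the same sign in all 4 replicates. A subset of replicates thus could not change its direction, and those alternatives say nothing about its stability. Counted as keeping its direction is also the score difference in the higher-scoring 50%, 0.011 ± 0.22 (SD, n = 4), with both signs among the replicates. With each replicate left out in turn, the mean log2 ratio of the window to the rest of 3L ranged from 3.47 to 3.76, and it reached 5.00 in the higher-scoring 50%. The mean step position ranged from 23013558 to 23033558 over all alternatives. The sign-flip permutation test cannot pass 0.05 under any alternative, so a p that stays above it says nothing about stability; no other test of the ratios was run. The ratios are formed within each replicate. No paired analysis was possible of ChIP against input, the groups that share replicate numbers, because the inputs have no list of their own here. Alternatives that need a genome or annotation of release 5 were not run. As the depth is unknown, absence from a list cannot be told apart from a signal slightly below what the authors called.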

Other observations

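After neighbouring regions no more than 1000 bp apart were joined, the window held 120, 90, 97 and 79 blocks in replicates 1 to 4 and 78 in the combined set. The widest joined block of the combined set ran for 200076 bp from 23335062 to 23535137. The widest in replicate 2, 159484 bp from 23335089 to 23494572, lay inside it, as did the widest in replicate 3, 56012 bp from 23435260 to 23491271. In replicate 1 the widest was 63459 bp from 23612264 to 23675722, and in replicate 4 it was 91903 bp that ended at the last base of 3L.

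Every region of replicates 1 and 2 in the window overlapped a combined-set region, whereas 7 of 154 regions of replicate 3 (4.55%) and 3 of 123 of replicate 4 (2.44%) overlapped none. Over the whole lists the shares were 0.296%, 0.176%, 4.53% and 3.71% in replicates 1 to 4, so the higher-numbered pair had the larger shares there too.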
